A study of Mus musculus with 4 samples.

Results

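The mRNAs of the cytosolic translation factors were described in primary mouse cells of the C57BL/6NJ strain that are labelled regulatory T cell. Members were all gene rows whose identifier maps in GENCODE M21 to a protein-coding symbol that starts with Eif or Eef, without the Eif2ak, Eif2s3 and Eif4ebp symbols, and 59 of the 50600 rows met this rule. They cover the initiation factors (eIF), the elongation factors (eEF) and enzymes that modify them. RNA had been sequenced in 4 libraries, each with its own biosample and with biological replicate numbers 1 to 4 in the labels. The labels give a single donor record, no known age and no sex, and they cite a protocol for the differentiation of CD4+ T cells. All libraries form 1 group, with no treatment in the labels, and the column name in each file holds the word activated beside a mark of 0 h. No other group was analysed here, so genes were compared with each other inside a library, and replicate libraries were compared for their variation. Nothing in the labels says that the biosamples came from separate animals, so this spread may in part be technical.

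Translation of an mRNA begins when eIF4F, made of the cap-binding protein eIF4E, the scaffold eIF4G and the helicase eIF4A, loads the small ribosomal subunit, which carries eIF3 and the initiator tRNA held by eIF2. Elongation then cycles through eEF1A, which brings aminoacyl-tRNA, and eEF2, which moves the ribosome on. T cells at rest make little protein and raise translation sharply when their receptor is engaged. Many mRNAs of the translation machinery begin with a C and a run of pyrimidines, the terminal oligopyrimidine or TOP motif, through which growth signals control their translation.

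Transcript starts are shown first, because that motif is the sequence feature by which the factors are usually sorted. Each line below gives the leading 25 bases of an annotated GENCODE M21 transcript, 5′ to 3′, with capitals marking a C and the pyrimidines that follow it. The first 6 lines have such a run of at least 5 bases at base 1, and the other 6 have a run of at least 6 bases further in.
Eef1b2: CTTTTTTTCCCTCagcgctggccgc
Eef1d: CTCTCCTTTgcagtcctgagctcgc
Eif3f: CTCTTTCTCggcaagatggcttctc
Eif3m: CTTTTCCggtcggcgtgtttctgga
Eif4a2: CTTTTCagtcgggcgctgagtgggt
Eif2s1: CTCTTggttgactaaaacttaaagc
Eef2: gttgacgtcagcggtCTCTTCCgcc
Eif3e: gaacaagcgCTCCTTTCCCCCggca
Eif3c: aaCCTTTTCCTCTTCCggcgtcgtg
Eif3i: agtCTTTTTCCggtcccactcacat
Eif3k: acaCCTCTCTTCCggtcctctagtg
Eif4b: cgccgcgccaCCCCCTCgcgctgct

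A run that starts at base 1 was found in at least 1 basic protein-coding transcript of 6 of the 59 members (10.2%), against 4.21% of all protein-coding genes. With a run of 6 or more anywhere in the leading 25 bases counted, 23 of 59 members (39.0%) held one, against 26.7% of protein-coding genes. The search was made on the sense strand only, and both counts include every basic protein-coding transcript of a gene. In Eif3f and Eif2s1 the run at base 1 belongs to the principal annotated transcript, while in Eef1b2 and Eif3m it belongs to another one. For Eef1d and Eif4a2 no transcript examined carries the top mark of a principal transcript, so no such contrast is made. The start of Eif3f is on chromosome 7 at 108934417, plus strand, that of Eef1b2 on chromosome 1 at 63177130, plus strand, and that of Eef1d on chromosome 15 at 75909306, minus strand (mm10). Of the 14 subunit genes of eIF3, 8 held such a run, and so did 4 of the 5 genes of the helicase group. The most abundant member, Eef1a1, held none in this window of its annotated transcript. Annotated starts are not measured starts, so a match or its absence describes these letters alone.

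As the files show it, depth ran from 23000465 to 62090744 counts per library. Levels are given in TPM, the length-corrected share of a library computed from the deposited counts, as mean ± SD over 4 libraries. All 10 T cell markers examined reached 1 TPM in every library, and their summed level was 6942 to 7284 TPM. Trac gave the largest part of that sum, at 3435 ± 137 TPM. The regulatory T cell genes of the list were its lowest, among them Ctla4 at 7.77 ± 0.959 TPM and Ikzf2 at 1.34 ± 0.194 TPM. The sum therefore says little about the regulatory T cell label, and the low levels of these genes do not by themselves bear the label out. Whether the cells were regulatory T cells was not tested. Foxp3, the factor that defines regulatory T cells, stood at 8.08, 8.18, 9.46 and 7.39 TPM in replicates 1 to 4. Cd4 averaged 1067 ± 31.4 TPM, and Il2ra, another gene of regulatory T cells, had 6.22, 3.63, 9.13 and 3.11 TPM and was the only T cell marker called variable between libraries by edgeR. The B cell markers summed to 102, 62.2, 62.3 and 22.3 TPM in the same order, and 6 of the 7 that were tested varied between libraries. The myeloid markers summed to 15.5 to 19.0 TPM, for the most part from Cd68 (mean 11.7 TPM). The CD8 and natural killer markers summed to 70.4 to 84.8 TPM. Most of that came from Cd8b1 (mean 40.0 TPM) and Klrd1 (mean 32.6 TPM), the only 2 of these 7 that reached 1 TPM in every library. Cd8a averaged 0.794 TPM. Markers of red cells and platelets summed to 0.907 to 3.56 TPM, with Pf4, Ppbp and Gp9 at 0. The sums thus do not show that such cells were present. The part of other cell types in the levels below was not tested, and in bulk RNA a rarer cell type and less RNA per cell cannot be told apart.

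Translation factors were among the better expressed genes of these cells. Of the 59 members, 55 (93.2%) reached 1 TPM in every library, where 45.7% of all protein-coding genes did. The members' median was 95.7 ± 2.33 TPM, against 0.387 ± 0.0236 TPM over all 21764 protein-coding genes and 33.2 ± 0.685 TPM over the 9948 that reached 1 TPM. Among the 1000 most abundant protein-coding genes, which are 4.59% of the total, 25 members (42.4%) were found. Together the members took 3.27% ± 0.136 of all TPM (SD, n = 4). Of that sum, Eef1a1 and Eef2 alone took 67.0% ± 0.646, so the other 57 members shared 1.08% ± 0.0347 of all TPM.

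**Figure D1:**
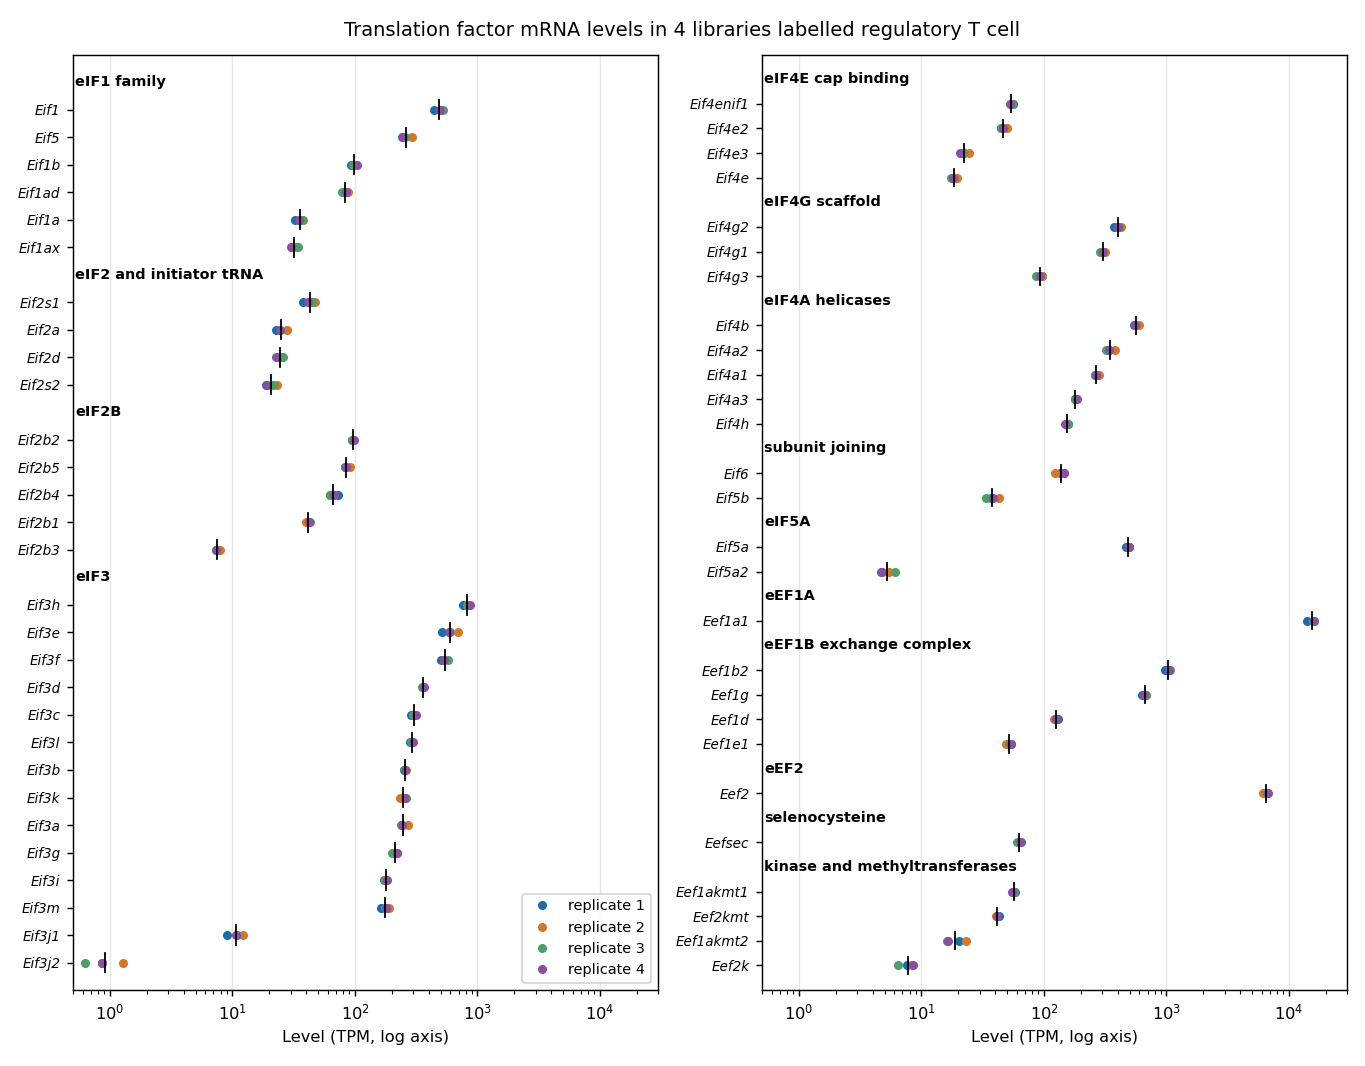
Level of each translation factor with a count, in TPM on a log axis, grouped by complex. Points are the 4 libraries and the black tick is their mean; Eef1a1 and Eef2 stand apart at the right end, and the points of most genes lie close together.

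The elongation factors led. Eef1a1, the mRNA of the main eEF1A that delivers aminoacyl-tRNA, lay at 14057, 16125, 15691 and 16022 TPM in replicates 1 to 4, on 254534 to 715738 counts. Eef2, the translocase, followed at 6327, 6087, 6653 and 6756 TPM. Replicate 1 was lowest for Eef1a1 and replicate 2 for Eef2, and the ranges of the 2 genes did not overlap. The level of Eef1a1 was 2.40 ± 0.179 times that of Eef2 in TPM. Eef1a1 lies on chromosome 9, 78478449 to 78489151 (mm10), and Eef2 on chromosome 10, 81176631 to 81182498.

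Eef1a2, the form of eEF1A known from muscle and nerve cells, had 0 counts in each of the 4 libraries. A count of 3, taken as the limit per library, would have given up to 0.216 TPM, and against that limit Eef1a1 was at least 70925-fold higher in every library. Such limits cover counting error only. Of the sampled 50-base words of Eef1a1 transcripts, 58.9% also occur in transcripts of another gene, which here are spread over 19 genes. Fragments that align to several places were not counted, so the level of Eef1a1 can be too low. With the exon length reduced to the unshared share, an alternative chosen after the data were seen, it was 37688 TPM, and its ratio to Eef2 was 5.45. These values can in turn be too high, since a fragment that covers shared and unshared bases may still have been counted. The exon length was reduced for members only and the library total was kept. Levels with the unshared length can thus be compared between members, but not with the TPM of other genes.

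The genes of the eEF1B complex, which recharges eEF1A with GTP, were expressed at unequal levels. By the exon length in the files, Eef1b2, a catalytic subunit, was highest at 968, 1046, 1072 and 1039.8 TPM. Eef1g, the structural subunit, averaged 663 ± 23.7 TPM, and Eef1d, the other exchange subunit, averaged 126 ± 4.36 TPM. Eef1e1, which encodes a protein of the multisynthetase complex, was lowest at 53.4, 48.6, 52.0 and 53.97 TPM. The ranges of neighbours in this order did not overlap. Eef1b2 exceeded Eef1g by 1.56 ± 0.0286 times, and Eef1g exceeded Eef1d by 5.29 ± 0.360 times, both in TPM. Eef1a1 in turn exceeded Eef1b2 by 14.5 to 15.4 times in TPM over the libraries. Eef1g shares 57.5% of its words with other genes, most of them with Gm4366. With the unshared length Eef1g came to 1562 TPM and Eef1b2 to 1160.1 TPM, which turned their ratio to 0.743, so these 2 genes cannot be ordered firmly. The same length moved the ratio of Eef1g to Eef1d to 11.5 and that of Eef1a1 to Eef1b2 to 32.5. The exon length of Eef1d in the count files, 5897 bases, is longer than its longest annotated transcript of 2856 bases, and with that transcript as length its level was 206 TPM. Eef1e1 in turn came to 16.7 TPM with its longest transcript of 2553 bases as length. That transcript is longer than the 1032 bases of exon that were counted, so this value can be too low.

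Eif5a, which helps the ribosome through hard stretches once a lysine has been turned into hypusine, lay at 471, 492, 493 and 492 TPM. Its paralog Eif5a2 lay at 4.68, 5.47, 6.05 and 4.75 TPM, on 171 to 482 counts. The log2 ratio of Eif5a to Eif5a2 was 6.52 ± 0.16, a 91.7-fold difference. Both enzymes that make hypusine were present, Dhps at 63.0 ± 0.874 TPM and Dohh at 48.5 ± 3.27 TPM. Eefsec, which brings selenocysteine tRNA to the ribosome, averaged 62.9 ± 1.99 TPM.

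Enzymes that modify elongation factors were far less abundant than their substrates. Eef1akmt1, a lysine methyltransferase of eEF1A, was highest of this group at 57.97, 56.2, 56.8 and 55.3 TPM. Eef2kmt, which methylates eEF2, averaged 41.6 ± 1.18 TPM and Eef1akmt2 averaged 18.9 ± 3.19 TPM. Eef2k, the kinase that switches eEF2 off, stood at 7.66, 8.31, 6.49 and 8.57 TPM. Eef1akmt3 had 0 counts in all 4 libraries, which allows up to 0.165 TPM.

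All subunits of the large eIF3 complex except Eif3j2 were detected in every library, and their levels were uneven. Eif3h was highest at 761, 850.3, 815 and 864 TPM, followed by Eif3e (598 ± 70.9 TPM) and Eif3f (539 ± 30.1 TPM). By the exon length in the files these 3 subunits stood above the rest of the complex in each library. The next were Eif3d (360.4 ± 6.00 TPM), which can bind the cap itself, Eif3c (303 ± 12.6 TPM) and Eif3l (290.1 ± 7.54 TPM). The core subunits Eif3b (254 ± 4.88 TPM) and Eif3a (247 ± 14.7 TPM) lay beside Eif3k (247 ± 12.1 TPM), and the ranges of Eif3b and Eif3k overlapped, as did those of Eif3k and Eif3a. Below them came Eif3g (212 ± 10.1 TPM), Eif3i (178 ± 4.39 TPM) and Eif3m (177 ± 11.0 TPM), of which Eif3i and Eif3m overlapped.

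Between Eif3h and Eif3m the fold was 4.66 ± 0.144 in TPM, with a lowest value of 4.48 and a highest of 4.83 over the libraries. Of the 13 neighbouring pairs in the order of eIF3 genes, 5 overlapped in range and 10 had the same order in all 4 libraries. The remaining overlaps were between Eif3e and Eif3f and between Eif3c and Eif3l. Eif3e, which reached 690.4 TPM in replicate 2 and 518 TPM in replicate 1, varied most among the abundant subunits. Its level also rests on length. Its longest annotated transcript (M21) has 4123 bases, where its exon length in the count files (M13) is 1541 bases. That transcript as length would put it at 178 TPM, below every other subunit but the Eif3j genes. Bases outside the counted exons gave no counts, so that value can be too low. The ratio of Eif3e to Eif3a, 2.42 ± 0.185 in TPM, turned to 0.895 with that length, under the same limit. Words shared with other genes made up 33.2% in Eif3d, 31.3% in Eif3m and 27.0% in Eif3h, so these 3 levels are also uncertain. With the unshared length Eif3h came to 1127 TPM, and Eif3d at 539.8 TPM came to the level of Eif3f at 539.0 TPM. Of the 13 neighbouring pairs, 5 turned in order with the longest transcript and 2 with the unshared length, while Eif3h was highest under both. The longest transcripts of Eif3d (2546 against 1910 bases) and Eif3l (2345 against 1893 bases) also exceed the counted exons.

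**Figure D2:**
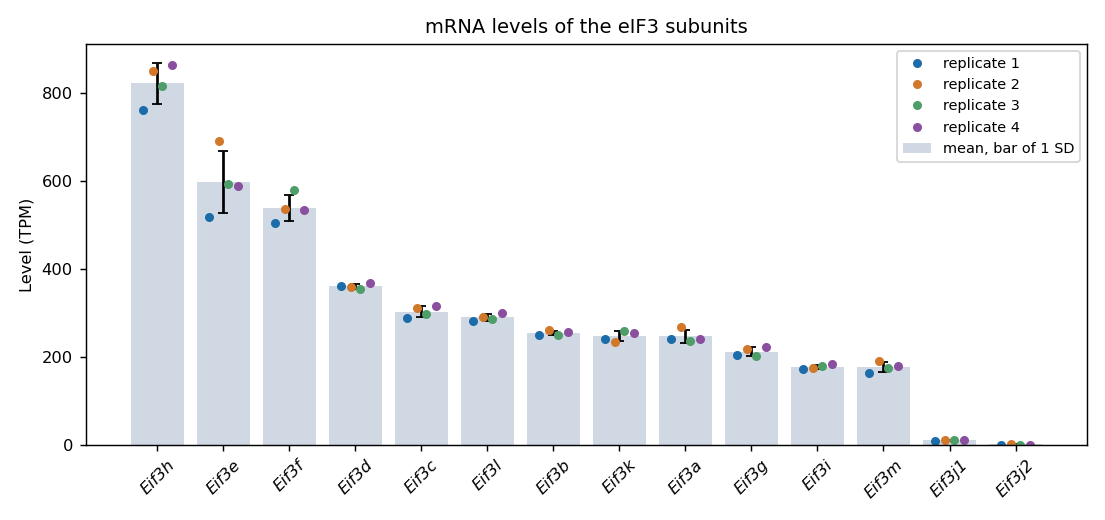
Level of the 14 eIF3 subunit genes in TPM. Bars are means with 1 SD and points are the 4 libraries; Eif3h, Eif3e and Eif3f exceed 500 TPM while the pair Eif3j1 and Eif3j2 lies near the axis.

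The loosely bound subunit eIF3j is encoded by a pair of near-identical genes, and both were low. Eif3j1 had 8.95, 12.1, 10.8 and 10.6 TPM, and Eif3j2 had 0.868, 1.27, 0.6298 and 0.868 TPM on 10 to 53 counts per library. The log2 ratio of Eif3j1 to Eif3j2 was 3.44 ± 0.34. However, 91.4% of the words of Eif3j2 and 51.7% of those of Eif3j1 occur in other genes, for the most part in each other. With the length reduced to the unshared share the ratio was 1.08, so its size rests on how shared sequence is treated.

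The 3 parts of eIF4F were measured at unlike levels. Among scaffolds, Eif4g2, which encodes a relative of eIF4G that does not bind eIF4E, was highest at 376, 429, 407 and 402 TPM. Eif4g1, the main eIF4G, had 311, 314, 285 and 303 TPM, and its paralog Eif4g3 had 96.3, 95.4, 85.96 and 92.5 TPM. Their ranges did not overlap. The log2 ratio of Eif4g2 to Eif4g1 was 0.41 ± 0.10 and that of Eif4g1 to Eif4g3 was 1.71 ± 0.02. Without length correction these were 0.91 and 1.10.

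Cap-binding genes were much lower. Eif4e, the cap-binding protein itself, lay at 18.1, 19.5, 17.6 and 18.2 TPM and was the lowest of its family with a count. Eif4e2, known as a repressor that occupies the cap, had 44.9, 49.996, 44.3 and 46.4 TPM, and Eif4e3 had 22.2, 24.5, 21.98 and 20.6 TPM. Eif4enif1, whose product carries eIF4E into the nucleus, was highest at 55.6, 53.6, 54.4 and 52.4 TPM, and Eif4e1b, known from oocytes, had 0 counts in all 4 libraries, which allows up to 0.199 TPM. No range of these genes overlapped that of a neighbour, but with the longest transcript as length Eif4enif1 came to 73.7 TPM and Eif4e2 to 79.7 TPM, which turns their order. The log2 ratio of Eif4e to Eif4e2 was -1.33 ± 0.02, and -2.17 with the longest transcript as length. The ratio of Eif4e to Eif4e3 was -0.28 ± 0.07, turned to 0.97 without length correction and was -0.01 with the longest transcript, so these 2 genes cannot be ordered firmly. Of the exon bases of Eif4e3, 14.8% lie inside exons of Gm20696 on the same strand, where fragments were left out of the counts. Eif4g1 exceeded Eif4e by 16.5 ± 0.479 times in TPM. Eif4e lies on chromosome 3, 138526179 to 138559696.

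Among the helicases and their helpers, the eIF4A cofactor Eif4b was highest by the exon length in the files, at 539, 595, 554 and 549 TPM. Eif4a1 had 261, 279.9, 259 and 268 TPM and Eif4a2 had 341, 379, 321 and 339 TPM, so Eif4a1 stood below Eif4a2 in each library. Eif4a3, the helicase of the exon junction complex, had 179.5, 179, 179.9 and 185 TPM, and Eif4h, a relative of Eif4b, had 157, 155, 157 and 148 TPM. The ranges of neighbours in this order did not overlap. With the longest transcript as length, however, Eif4b came to 444 TPM and Eif4a2 to 541 TPM, and Eif4a3 to 202 TPM and Eif4h to 249.8 TPM, so both of these orders turned. Eif4a1 lies on chromosome 11, 69666936 to 69672423, and Eif4a2 on chromosome 16, 23107444 to 23114136.

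The log2 ratio of Eif4a1 to Eif4a2 was -0.37 ± 0.05, that is, 1.29-fold more Eif4a2. In Eif4a1, 44.4% of the sampled words occur in other genes, most of them in the pseudogene Eif4a-ps4, against 15.8% in Eif4a2. With the length reduced to the unshared share the ratio turned to 0.23, which puts Eif4a1 above Eif4a2. With the longest transcript as length it was -0.90. The order of these 2 helicases therefore rests on the treatment of shared sequence. The ratio of Eif4a1 to Eif4a3 was 0.56 ± 0.06, and 1.08 with the unshared length. The ratio of Eif4b to Eif4h was 1.86 ± 0.07, and 0.83 with the longest transcript.

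**Figure D3:**
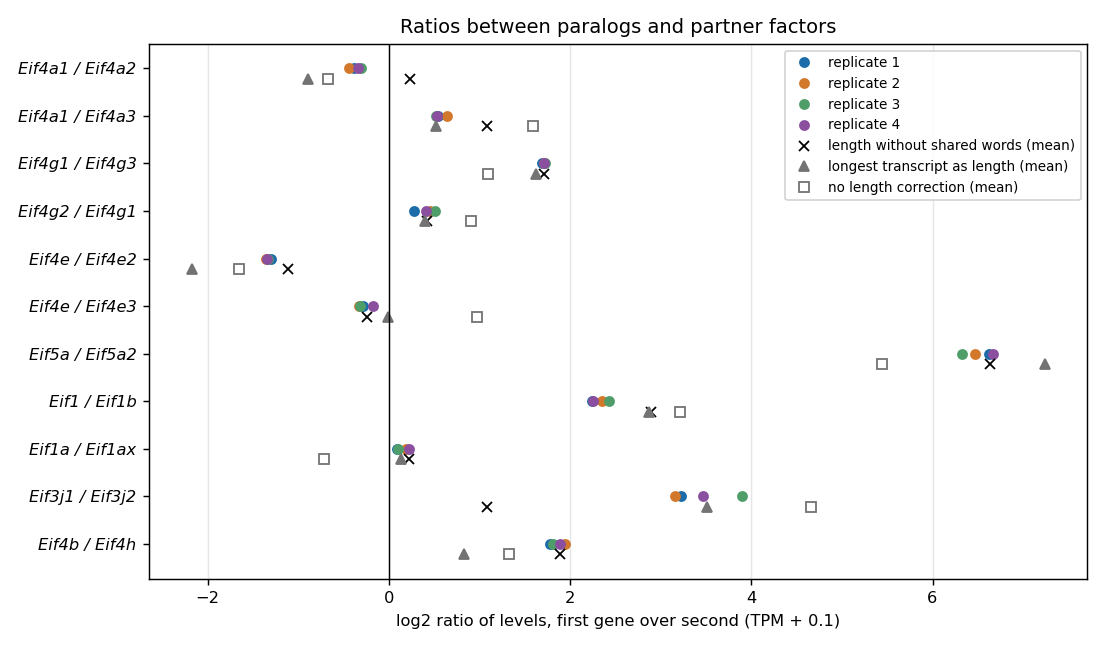
Log2 ratio of levels between paralogs and partner factors, first gene over second, with 0.1 TPM added. Coloured points are the 4 libraries and the other marks are means under other lengths; Eif4a1 over Eif4a2 crosses 0 with the unshared length, and Eif4e over Eif4e3 and Eif1a over Eif1ax cross it without length correction.

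The eIF2 complex, whose phosphorylation slows initiation under stress, was among the lower groups. Eif2s1, the alpha subunit that stress kinases phosphorylate, lay at 37.6, 46.9, 44.7 and 41.5 TPM, and Eif2s2, the beta subunit, lay at 18.6, 23.3, 21.6 and 19.3 TPM. Their ratio was 2.06 ± 0.0615 in TPM, and the gamma subunit was not analysed here. Eif2a and Eif2d, which can bring initiator tRNA by other routes, averaged 24.8 ± 2.35 and 24.4 ± 1.22 TPM. These 2 genes overlapped in range, and Eif2a was the higher in 2 of the 4 libraries, so they were not ordered. The ranges of Eif2d and Eif2s2 overlapped too, although Eif2d was the higher in 4 of 4.

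The subunits of eIF2B, which reloads eIF2 with GTP, spread over 12.7-fold. Eif2b2 was highest at 93.9, 96.5, 93.7 and 98.6 TPM. Eif2b5, the catalytic subunit, averaged 85.2 ± 4.39 TPM, Eif2b4 averaged 66.3 ± 4.85 TPM and Eif2b1 averaged 41.5 ± 1.09 TPM. Eif2b3 was lowest at 7.52, 7.95, 7.28 and 7.32 TPM, although it is a subunit of the same complex. None of these ranges overlapped. No sampled word of Eif2b3 occurs in another gene, and its exon length of 6520 bases exceeds its longest annotated transcript of 3754 bases. With that transcript as length its level was 10.4 TPM. Eif2b2 exceeded Eif2s1, a subunit of its substrate, by 2.26 ± 0.214 times in TPM.

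In the group of the eIF1 family and Eif5, Eif1, which guards the fidelity of start choice, lay highest at 441, 495, 523 and 491 TPM. Eif5, which triggers GTP hydrolysis on eIF2, averaged 259 ± 22.2 TPM, and Eif1ad, listed here with the eIF1 family, averaged 83.5 ± 4.17 TPM. Eif1b, the paralog of Eif1, had 92.9, 96.7, 97.1 and 103 TPM. The log2 ratio of Eif1 to Eif1b was 2.32 ± 0.09, and 2.89 with the unshared length, since 35.2% of the words of Eif1 occur elsewhere. The paralogs of eIF1A lay close together, with Eif1a at 32.5, 37.9, 36.9 and 35.2 TPM and the X-linked Eif1ax at 30.4, 33.2, 34.4 and 30.1 TPM. Their log2 ratio was 0.15 ± 0.06 with overlapping ranges, and it turned to -0.72 without length correction, so no order is read from it. Eif6, which keeps ribosomal subunits apart, averaged 137 ± 9.94 TPM. Eif5b, the GTPase of subunit joining, averaged 37.9 ± 3.75 TPM.

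Each of the 12 ratios between paralogs or partners had the same sign in 4 of 4 libraries. An exact two-sided sign-flip test over 4 libraries cannot give less than 2 of 16 sign patterns. Each ratio gave that smallest value, and the Benjamini-Hochberg adjustment over the 12 ratios left it unchanged, so no ratio could pass a threshold of 0.05 in this design.

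The mRNAs known from earlier work as TOP mRNAs had a higher median level than the other factors. The 9 members of that list, Eef1a1, Eef1b2, Eef1d, Eef1g, Eef2, Eif3e, Eif3f, Eif3h and Eif4b, had a median of 665 ± 26.1 TPM. The other 50 members had a median of 64.6 ± 3.38 TPM, so the ratio of medians was 10.3 ± 0.915 (lowest 9.16, highest 11.1). With the unshared length it was 15.8. Among those that reached 1 TPM in every library the others' median was 84.4 ± 4.11 TPM. Eef1d was lowest in the TOP list at 126 TPM, and by the exon length in the files the other 8 members of the list exceeded 500 TPM in every library. With the longest transcript as length Eif3e (178 TPM), Eif4b (444 TPM) and Eif3f (493 TPM) did not, although that value of Eif3e can be too low, as given above. That length was set for all genes, so the library total changed as well. Eif4b thus fell from 559 TPM although its own length went only from 3853 to 3854 bases. By sequence, 3 of the 9 had a transcript that starts with a pyrimidine run and 6 had a run in the leading 25 bases, against 3 and 17 of the other 50. The list was chosen with results of these data known, and these values describe it without a test.

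Levels of the factors differed little between libraries. The highest over the lowest library had a median of 1.12 over the 56 members that passed the filter on low counts, against 1.18 over all 12554 genes that passed it (TMM-scaled). The coefficient of variation of the TPM had a median of 4.99% over the 55 detected members, against 6.73% over detected protein-coding genes. It exceeded 10% in 6 of them, which were Eef1akmt2 (16.9%), Eif5a2 (12.4%), Eif3j1 (12.3%), Eef2k (11.9%), Eif3e (11.9%) and Eif2s2 (10.3%). Neither comparison was matched for level. Detected members had a median of 126 TPM, against 33.2 TPM over detected protein-coding genes, and the part of level in these gaps was not tested.

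Genes that vary between libraries more than genes of like abundance were called with edgeR at an adjusted p of 0.05 over all genes. No member was called, 0 of 56 tested, where 1.13% of all genes tested were. At an unadjusted p under 0.05 there were likewise 0 of 56, where 5.23% of all genes tested passed. With the dispersion trend of DESeq2, 0 members were called and 1 had an unadjusted p under 0.05. The lowest unadjusted edgeR p belonged to Eif6 (0.103, 1.22-fold range) and Eif3e (0.115, 1.31-fold range), each with an adjusted p of 1. In simulated counts of 12554 genes at this depth the test recovered 19 of 100 genes changed 1.5-fold in 1 library. It recovered 100 of 100 changed 3-fold, with 3 false calls, so smaller differences between libraries can pass unseen. The counts were drawn at the dispersion that the test assumes, so the few false calls follow from that setting. Changed genes were drawn only above a limit on mean counts, which leaves out genes as low as Eif3j2. Replicate 2 was the highest library for 25 of the 56 members with a count (44.6%), and it was also highest for 41.1% of detected protein-coding genes. Replicate 1 was the lowest for 23 of the 56 (41.1%), against 23.1% of those genes, and replicate 3 for 19 (33.9%), against 25.4%. Replicates 1 and 3 also had the fewest counts, at 25573253 and 23000465, and the part of depth was not tested.

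**Figure D4:**
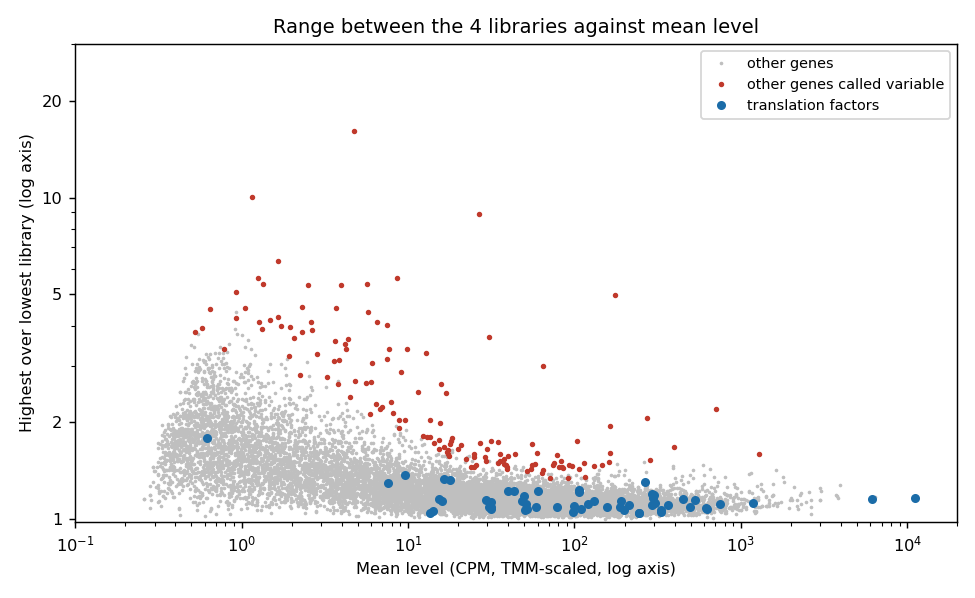
Highest over lowest library against mean level in CPM, both on log axes, for all genes tested. Translation factors are blue, other genes called variable are red, and no blue point is among the called ones; 1 gene lies above the axis.

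The regulators of initiation ranged widely in level. All 25 matched genes of the list reached 1 TPM in every library, their median was 52.8 ± 1.99 TPM, and 0 of the 24 tested varied between libraries. Pabpc1, the poly(A)-binding protein that touches eIF4G, was highest at 763 ± 48.7 TPM, with Mknk2, a kinase of eIF4E, at 598 ± 37.96 TPM. Pdcd4, an inhibitor of eIF4A, lay level with Mknk2 at 597 ± 72.9 TPM and above it in replicate 2 (707 against 543 TPM). By the exon length in the files it was 2.23 ± 0.195 times Eif4a1 in TPM. The level of Eif4a1 is uncertain, since 44.4% of its sampled words occur in other genes. The unshared length was set for members only, so it gives no value to compare with Pdcd4. Among the inhibitors of eIF4E, Eif4ebp2 had 409, 417, 407 and 404 TPM, Eif4ebp1 had 6.52, 6.24, 6.96 and 6.79 TPM and Eif4ebp3 had 3.15, 1.23, 1.01 and 1.28 TPM. Eif4ebp2, which was chosen after its values were seen, thus exceeded Eif4e by 22.3 ± 0.740 times and Eif4ebp1 by 61.9 ± 3.80 times in TPM. Ratios that involve a regulator were not recomputed with other lengths. Of the termination and recycling genes, 5 of 6 reached 1 TPM in every library and 0 of the 5 tested varied. The release factors Etf1 (125 ± 8.22 TPM) and Gspt1 (103 ± 6.56 TPM) led with the recycling factor Abce1 (84.7 ± 7.60 TPM), while Pelo, a ribosome rescue factor, had 28.4 ± 2.12 TPM and Gspt2 had 1 count over all libraries.

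**Figure D5:**
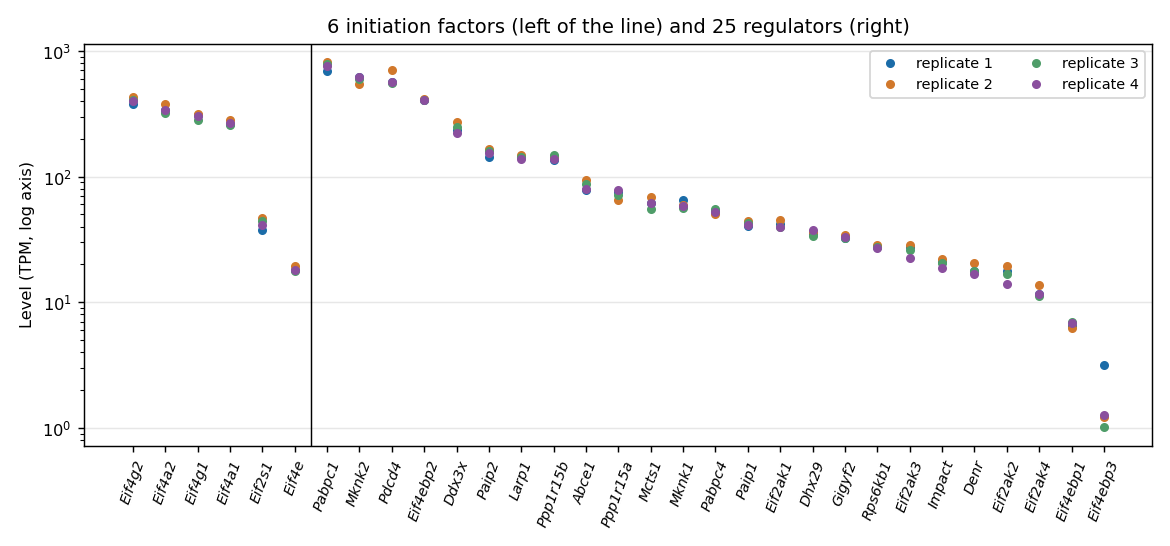
Level in TPM on a log axis for 6 initiation factors, left of the line, and the 25 regulators of initiation, right of it. Points are the 4 libraries; Eif4e lies at 18.4 TPM on average, far below Eif4ebp2 at 409 TPM, and Eif4ebp3 lies lowest.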

How the data were processed

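Poly(A)+ selection is named in the title of the library protocol cited by the labels, while the assay is labelled total RNA-seq. The deposited files hold raw counts of fragments per gene, which the authors made with featureCounts 1.4.6-p4 in paired, reverse-stranded mode over GENCODE M13 exons (mm10), per the file headers. No option for multi-mapping or multi-gene fragments was set, so such fragments were left out. The aligner was not given in the sources used here beyond a file name that contains star2, and read length was not given.

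TPM was computed here from the counts and the exon length in the files. Names, transcripts and coordinates are from GENCODE M21, which matched 50376 of 50600 rows (99.6%). One annotated member, Eef1akmt4, had no row and was not analysed here, and Gcn1 of the regulator list was not matched. Ratios are log2 of TPM + 0.1. Variation between libraries was tested with edgeR 4.0.16 (R 4.3.3): an intercept-only quasi-likelihood fit with TMM scaling after filterByExpr, with the residual deviance at the trended dispersion set against chi-square on 3 degrees of freedom and Benjamini-Hochberg adjustment over 12554 genes. The test was tried on simulated counts drawn at the trended dispersion that it assumes. DESeq2 1.42.0 gave the alternative dispersion trend and size factors. Other alternatives changed the pseudocount, gene length, low-count filter, detection limit and thresholds, or left out each library in turn. The length without shared sequence, from 50-base words taken every 10 bases, was added after the data were seen. Words came from every annotated transcript of a gene, so stretches found in several transcripts can weigh more. Shared words were treated as wholly uncounted, so levels with this length can be too high. Other lengths for level ratios between members, orders within complexes and the TOP ratio were also added then. The unshared length was applied to members only, with the library total unchanged. The longest transcript is from GENCODE M21, so where it exceeds the M13 exons counted, as in Eif3e and Eef1e1, the level can be too low. It was set for all genes, so the library total changed with it. Levels with the longest transcript can be compared with each other, but less well with those by exon length.

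Every member is named, and values in all libraries are given for the highest and lowest member of each complex of 3 or more and for all paralog pairs. Of the lists of regulators, hypusination enzymes, and termination and recycling genes, the 3 highest and 2 lowest are named. The members and lists were chosen with earlier results of these data known.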

Additional observations from a re-analysis of the deposited data

Results flagged for a closer look

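In 4 of the 56 factors with a count, 1 library stood far from the other 3 by Dixon's test. Chance alone marks about 1 in 20 such groups of normal values, and 4 of 56 is not far from that share. The share over all genes is not given here, so the flags are listed without being read as real differences. Eif5a was low in replicate 1 at 471 TPM, where the other libraries lay between 492.2 and 492.8 TPM. Eif3a was high in replicate 2 at 268 TPM, where the others lay between 236.6 and 240.9 TPM. Eif2b5 was also high in replicate 2, at 91.8 TPM against 82.7 to 83.8 TPM in the others. Eif4a3 was high in replicate 4 at 185 TPM, where the others lay between 179.0 and 179.9 TPM. None of these 4 genes was called variable by edgeR.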

How the results depend on the processing

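No paired analysis was possible because all libraries form 1 group. Of the ratios, Eif4a1 to Eif4a2 reversed to 0.23 with the length without shared words, an alternative chosen after seeing the data, and without length correction Eif4e to Eif4e3 reversed to 0.97 and Eif1a to Eif1ax to -0.72, where the change of length alone makes the difference. Of the level ratios, Eef1b2 to Eef1g reversed to 0.743 with the unshared length and Eif3e to Eif3a to 0.895 with the longest transcript. The longest transcript of Eif3e exceeds the exons that were counted for it. Among 42 neighbouring pairs within complexes, 9 turned in order with the longest transcript, Eif4b and Eif4a2 and Eif4enif1 and Eif4e2 among them, and 5 with the unshared length. The share of TPM in the factors was 2.76% as a share of counts and 3.67% within protein-coding genes off the mitochondrial genome. The members' median was 104 CPM without length correction and 112 TPM over members with a count. The TOP ratio was 8.25 in CPM, 7.89 against the other detected members, 8.91 with the longest transcript and 15.8 with the unshared length. Leaving out 1 library gave 3.24% to 3.34%, 94.7 to 96.3 TPM and 10.1 to 10.7 for these 3 values. The factors detected numbered 54 at 5 TPM and 56 at 10 counts. No member was called variable under any of the 8 alternatives, although the count over all genes moved to 88 without a low-count filter, 74 at an adjusted p of 0.01 and 60 to 85 with a library left out, against 142, and the cause was not tested. Levels of 45 members moved by over 1 SD with the longest transcript as length, and of 23 with the unshared length. With the longest transcript the library total changed too, so a level could move without a change in its own length. Eif4e3, at 2515 bases under both lengths, moved from 22.3 to 17.7 TPM. TMM scaling moved none of the 59 that far. Depth limits genes such as Eif3j2, on 10 to 53 counts.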
